A study of Mus musculus with 11 samples.

Results

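The set described here holds 30 genes of cholesterol synthesis, sterol transport and the control of SREBP, a transcription factor that drives the synthesis genes, out of 23286 rows of a deposited expression table. The genes were chosen by name from the pathway, at a time when earlier results of the same table were known, so the group values below describe the set and test nothing about how it was chosen. They fall into 18 synthesis enzymes, 5 genes of SREBP control and 7 genes of uptake, transport, storage and efflux. Each had exactly 1 row, and 29 of the 30 reached the level of 1 FPKM in at least 1 group that was asked of a compared row. FPKM counts sequenced fragments scaled to transcript length and to the library's mapped total, so it can be set side by side between genes. The gene below that level was Abcg1, a sterol efflux pump, with 0.167 FPKM in starved, 0.116 in PDGFA and 0.115 in FGF1 cells.

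The study measured polyA RNA of primary mouse palatal mesenchyme cells taken from E13.5 embryos. Cells of all groups were grown in 10% serum and then kept overnight in 0.1% serum. The starved group (4 libraries) got nothing more, the PDGFA group (4 libraries) got 30 ng/mL PDGFA for 1 h, and the FGF1 group (3 libraries) got 50 ng/mL FGF1 together with 1 µg/mL heparin for 1 h. PDGFA and FGF1 are growth factors that act through receptor tyrosine kinases, and heparin helps FGF1 bind its receptor. No group had heparin alone, so effects of FGF1 and of heparin cannot be told apart, and the ligand doses differed. The labels name no strain or genotype and do not say whether libraries came from separate litters or cultures.

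The authors deposited 1 FPKM value per gene and group, estimated over its libraries, and a lower and upper bound, given in square brackets below. No values per library, SD or p-value were given with these group values, and sequencing depth is unknown. A gene was called different between groups only when the 2 deposited intervals lay wholly apart, so a gene that was not called is not shown to be unchanged. Log2 folds are on the scale of FPKM + 0.5, where differences of low genes come out too small, and the range given with a log2 fold treats the deposited bounds as 95% bounds. The cells carried mesenchymal markers: 8 of them summed to 5057 FPKM in starved, 6198 in PDGFA and 5370 in FGF1 cells, while the 5 epithelial markers summed to between 0.411 and 0.719 FPKM in the 3 groups. In starved cells Col1a2 had 2025 FPKM, Vim 1982 and Col3a1 750, while Pdgfra had 3.87 and Osr2 3.73. Of 7 compared mesenchymal markers 5 were higher than in starved cells with PDGFA, against 49.3% of compared rows. With FGF1 3 were higher and 4 lower, where 56% of compared rows were higher. Of the mesenchymal markers Col1a1 was listed at 0 in all 3 groups, so a 0 in this table can be a failed estimate. The 4 skeletal muscle markers (3 of them compared) summed to 3.95 FPKM in starved, 9.81 in PDGFA and 3.54 in FGF1 cells, and 4 neural markers to 38.3, 50.8 and 46.1, of which Tubb3, a tubulin, made 37.0, 49.8 and 44.8. The 4 endothelial markers summed to 3.47, 4.08 and 3.60 FPKM, and 3 blood and immune markers to at most 0.102. The part of these markers in the PDGFA and FGF1 values was not tested. In such bulk RNA, a change in the share of a cell type and a change of RNA per cell cannot be told apart.

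Cells build cholesterol from acetyl-CoA through the mevalonate pathway, in which early enzymes make the isoprenoid building blocks and squalene and late enzymes close and trim the sterol rings. When sterols in the endoplasmic reticulum are low, SCAP carries the SREBP precursor to the Golgi, where proteases release the active factor, which then switches on the enzyme genes. When sterols are plentiful, INSIG proteins hold SCAP back, and because Insig1 is itself an SREBP target the circuit limits its own output. Cholesterol is also a modifier of Hedgehog ligands, and inborn defects of late enzymes such as DHCR7 are known for cleft palate among other signs.

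SREBP acts on promoters with help from the factors NF-Y and Sp1, and 24 of the 30 genes had a promoter in the RefSeq table of build GRCm38.p6. In the 250 bases before the start, on both strands, 4 motifs were searched: the sterol regulatory element as TCACNCCAC, the NF-Y box as CCAAT, the GC box bound by Sp1 as GGGCGG, and the E-box as CACGTG. The NF-Y box was held by 21 of the 24 genes and by 14 of 15 enzymes, against 41.0% of the 9328 compared genes with a promoter and 37.5% of all 27025 genes. For the GC box the counts were 22 of 24 genes and 14 of 15 enzymes, against 66.7% of compared genes. The E-box was held by 6 of 24 genes, against 10.3% of compared genes. The sterol element in this strict spelling was found in 1 of 24 genes, Hmgcs1, against 1.24% of compared genes. A match describes the letters only and is not evidence of binding.

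The 24 genes had 32 promoter windows between them, and a gene was counted where any of its windows held the motif. Promoter stretches are shown for 4 genes, each read in the direction of transcription with every match to one of the 4 motifs in capitals. Hmgcs1, the enzyme gene with the highest level, is shown around its sterol element, which lies 137 to 129 bases before the start, at chr13:119690164-119690272 on the plus strand. Insig1 (chr5:28071162-28071411, plus strand), the gene with the largest fold of FGF1 over starved cells, is set beside its paralog Insig2 (chr1:121332590-121332839, minus strand), whose starved and FGF1 values were nearly equal. Mvk (chr5:114444019-114444268, plus strand) is the enzyme gene with the most NF-Y boxes. The last 3 were picked after the values were seen.
Hmgcs1: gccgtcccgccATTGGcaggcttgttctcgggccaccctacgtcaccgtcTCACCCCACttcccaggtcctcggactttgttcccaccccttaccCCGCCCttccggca
Insig1: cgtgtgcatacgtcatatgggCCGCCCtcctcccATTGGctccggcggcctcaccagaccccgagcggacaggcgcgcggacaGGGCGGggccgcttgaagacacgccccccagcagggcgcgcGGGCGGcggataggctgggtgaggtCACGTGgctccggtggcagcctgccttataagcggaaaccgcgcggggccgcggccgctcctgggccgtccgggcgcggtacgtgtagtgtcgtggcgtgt
Insig2: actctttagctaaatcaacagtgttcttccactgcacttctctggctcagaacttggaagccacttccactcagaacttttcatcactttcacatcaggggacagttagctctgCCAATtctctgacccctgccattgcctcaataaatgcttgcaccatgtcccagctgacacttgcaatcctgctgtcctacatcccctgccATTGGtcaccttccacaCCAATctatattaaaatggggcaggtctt
Mvk: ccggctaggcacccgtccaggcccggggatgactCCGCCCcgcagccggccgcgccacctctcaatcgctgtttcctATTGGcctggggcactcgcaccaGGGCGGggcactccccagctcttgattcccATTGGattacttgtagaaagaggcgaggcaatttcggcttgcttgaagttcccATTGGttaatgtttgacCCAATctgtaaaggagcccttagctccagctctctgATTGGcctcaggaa
The Insig1 window was 72.8% G and C with 3 GC boxes, 1 NF-Y box and 1 E-box. The Insig2 window shown, at the start of its deposited locus, was 47.2% G and C with 3 NF-Y boxes and none of the other motifs. Insig2 has 2 further windows in the table, starting inside its locus, and each held 1 GC box and none of the other motifs. The Mvk window held 5 NF-Y boxes and 2 GC boxes.

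All 18 enzyme rows had RNA in starved palatal cells, 1 of them a joint row of Tm7sf2 and the overlapping gene Vps51. The rows lay between 7.50 and 216 FPKM, with a median of 64.6. The highest was Hmgcs1, the HMG-CoA synthase of the mevalonate pathway, at 216 FPKM [159 to 271], a level that 1.93% of compared rows exceeded. Next came Msmo1, a methyl sterol oxidase, at 195 [140.3 to 249], whose interval overlapped that of Hmgcs1. Cyp51, the lanosterol demethylase, had 137 [103 to 172] and Sqle, the squalene epoxidase, 136 [102 to 169]. Those 2 levels did not differ beyond their intervals. The lowest enzyme was Idi1, the isomerase of the isoprenoid building block, at 7.50 FPKM [5.50 to 9.48], and its interval lay apart from that of every other enzyme in starved cells. Ebp, a sterol isomerase, was next lowest at 25.3 [18.1 to 32.004].

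**Figure D1:**
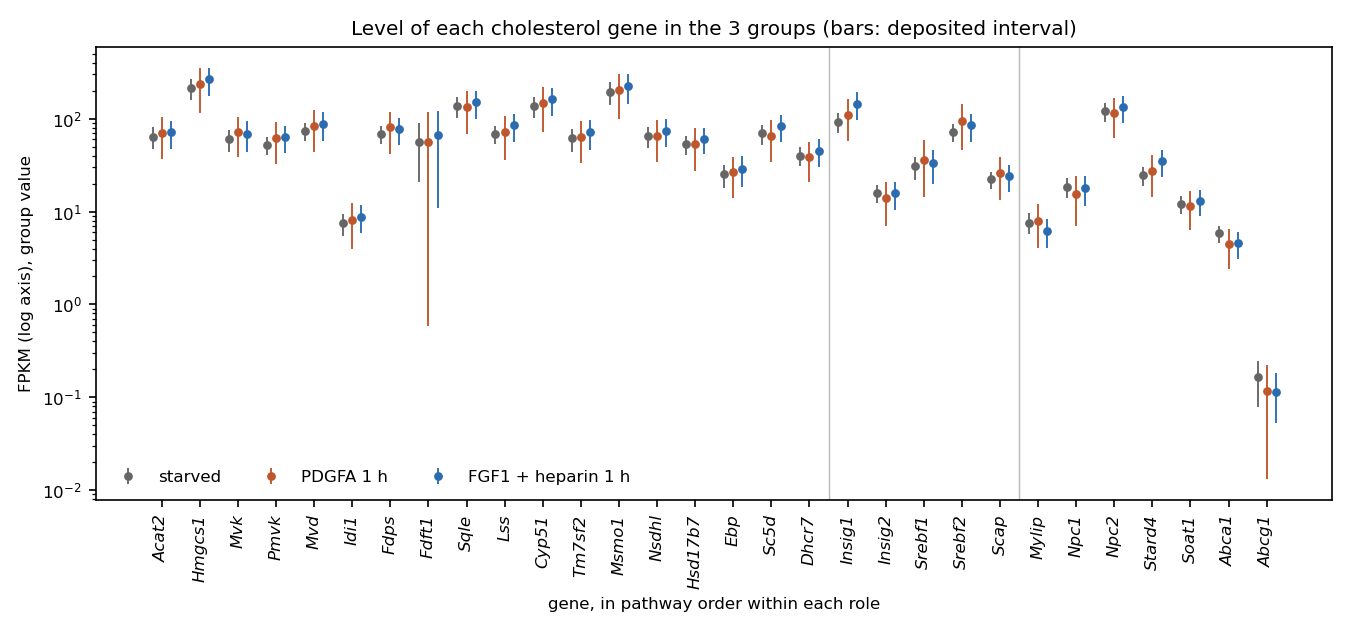
FPKM of each of the 30 genes on a log axis, in starved, PDGFA and FGF1 cells, with bars for the deposited intervals and vertical lines between synthesis enzymes, SREBP control and transport genes. Within each gene the 3 intervals overlap, and levels run from Hmgcs1 near 216 FPKM down to Abcg1 below 1 FPKM.

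Not every row measures its gene alone. The row named for Tm7sf2, a sterol reductase, was deposited jointly with Vps51, a gene that overlaps it, so its 61.5 FPKM cannot be assigned to either. Fdft1, the squalene synthase, overlaps Ctsb, and its intervals were the widest among the compared genes relative to the value, from 20.9 to 90.7 around 55.8 FPKM in starved cells and from 0.590 to 118 around 55.8 in PDGFA cells. In FGF1 cells Fdft1 had 66.4 FPKM, with a log2 fold over starved cells of 0.25 (−1.24 to 1.74). Srebf1 overlaps Rai1 and Npc1 overlaps Rmc1 at their ends, and whether the counting used strand is not stated. The deposited locus of Lss ends at 76562226, past the gene's own end at 76557139, and 4930483K19Rik overlaps the gene. Measured by 31-base words found at another locus, Fdps shared 68.2%, Acat2 50.5% (with its near copy Acat3, whose own row stood at 0.186 FPKM in starved cells) and Idi1 22.2%, so these values depend on how the authors assigned reads that match more than once. The other 27 genes shared under 20%, and 17 shared no word.

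After 1 h of FGF1 with heparin, all 18 enzyme rows stood above their starved value, by a narrow margin. The fold of FPKM ran from 1.10 for Sqle to 1.24 for Lss, and the median log2 fold was 0.21. None of the 29 compared genes was called, where 0.555% of the 11702 compared rows were. A higher value in FGF1 cells was found in 56% of compared rows, and in 65% of the 7195 rows whose starved level lay in the range of the enzymes, which had a median log2 fold of 0.04. The low end of that range, 7.50 FPKM, was set by Idi1 alone. Ebp came next at 25.3 FPKM, and the median enzyme level was 64.6, so many of those rows lay below most enzymes. Levels and folds moved together across the table: in the eighth of rows with the highest level the median log2 fold with FGF1 was 0.11. With a smooth trend on transcript GC content, length and level taken out, all 18 enzymes lay above 0, with a median of 0.12, where 49.4% of the rows with a trend did.

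Early in the pathway, Hmgcs1 had 216 FPKM [159 to 271] in starved, 235 [115 to 356] in PDGFA and 265 [174 to 355] in FGF1 cells. Its FGF1 value was the highest of the 3, inside the starved interval, and the log2 fold over starved cells was 0.30 (−0.32 to 0.91). Mvk, the mevalonate kinase, had 61.2 [43.9 to 76.1], 71.7 [39.1 to 104] and 69.2 [44.3 to 93.9] in the same order. Pmvk, the next kinase, had 52.4 [40.7 to 64.0], 62.5 [32.7 to 92.3] and 62.9 [42.3 to 83.5]. Mvd, the decarboxylase that follows, had 74.3 [58.3 to 90.4], 84.5 [44.2 to 125] and 87.8 [58.3 to 117]. For these 3 genes the ligands gave nearly the same value, with log2 folds of FGF1 against PDGFA of −0.05, 0.01 and 0.05. Idi1 had 7.50, 8.20 and 8.83 FPKM and Fdps, the farnesyl diphosphate synthase, 68.5, 80.7 and 77.2. Acat2, the thiolase at the head of the pathway, had 64.3, 70.4 and 71.5, and all these intervals overlapped.

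Among the late enzymes, Lss, which closes the rings to lanosterol, had the largest fold with FGF1. It had 68.3 FPKM [53.1 to 83.5] in starved, 71.8 [35.7 to 108] in PDGFA and 84.8 [56.3 to 113] in FGF1 cells, and its log2 fold with FGF1 was 0.31 (−0.27 to 0.89). It was also the one enzyme whose FGF1 value lay above the starved interval. Sc5d, the lathosterol desaturase, had 69.4 [51.9 to 86.5], 66.0 [34.0 to 97.9] and 83.7 [56.2 to 111]. Dhcr7, a reductase of the final part of the pathway, had 40.1 [30.6 to 49.1], 38.8 [21.1 to 56.7] and 45.5 [30.4 to 60.6]. Sqle had 136 [102 to 169], 133 [68.6 to 197] and 149.8 [100.5 to 199]. In Sc5d, Dhcr7 and Sqle the PDGFA value was below and the FGF1 value above the starved one. The other late enzymes kept the order starved, PDGFA, FGF1: Cyp51 had 137, 146 and 162 FPKM, and Msmo1 195, 203 and 226. Nsdhl, a sterol dehydrogenase, had 64.9, 65.9 and 74.0 FPKM, Hsd17b7, a sterol ketone reductase, 52.9, 54.1 and 60.2, and Ebp 25.3, 26.4 and 29.0. The joint row of Tm7sf2 and Vps51 had 61.5, 64.4 and 71.5.

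**Figure D2:**
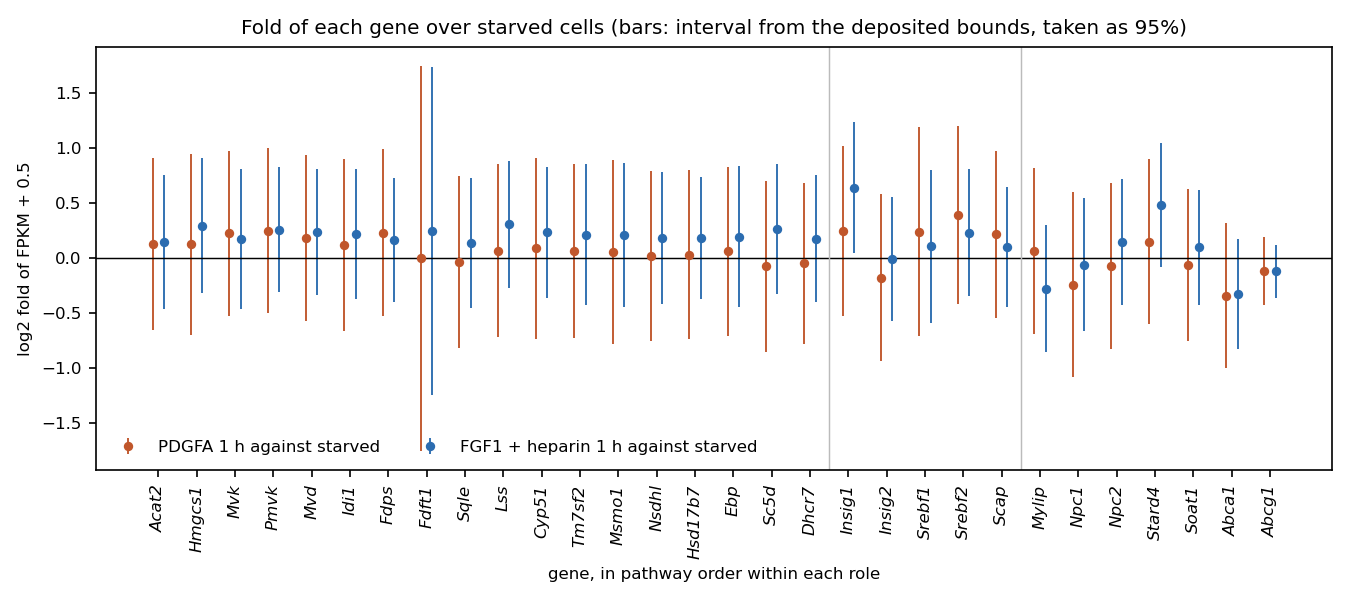
Log2 fold of FPKM + 0.5 over starved cells for each of the 30 genes with PDGFA and with FGF1 plus heparin, with bars for the interval made from the deposited bounds; Abcg1, below the level asked of compared rows, is drawn too. The FGF1 points of the 18 enzymes lie between 0.14 and 0.31, and Insig1 with FGF1 is the one point whose bar does not cross 0.

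With PDGFA the enzymes did not share a direction. Of the 18 enzymes 14 stood above their starved value. The median log2 fold was 0.07, and single values ran from −0.07 for Sc5d to 0.25 for Pmvk. None of the 29 genes was called, against 0.308% of compared rows, and a higher value was found in 49.3% of all compared rows and 53.2% of rows in the enzymes' level range. All 18 PDGFA values lay inside the starved intervals. The early enzymes, from Acat2 to Fdft1, had a median log2 fold of 0.16 (7 of 8 higher), and the late enzymes, from Sqle to Dhcr7, one of 0.05 (7 of 10 higher). The early enzymes also had more GC-rich transcripts, with a median GC content of 53.1% against 47.8%.

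PDGFA folds followed GC content over the whole table (Spearman 0.606), against 0.182 with FGF1, a description over 11466 rows of the same 3 group values. The median log2 fold with PDGFA went from −0.19 in the eighth of rows with the lowest GC content to 0.24 in the highest. With FGF1 these medians were 0.00 and 0.07. Mvk, with 59.6% GC, had a log2 fold with PDGFA of 0.23 as deposited and −0.05 with the trend removed, and Mvd, with 59.0%, went from 0.18 to −0.08. In the other direction Idi1, with 41.9% GC, went from 0.12 to 0.30, and Hmgcs1, with 43.1%, from 0.13 to 0.21. With the trend removed 11 of 18 enzymes lay above 0 with PDGFA, as did 48.7% of all rows with a trend. Their median was 0.04, and the early and late medians came to 0.06 and 0.03. Under quantile normalization the median of the 18 enzymes with PDGFA was −0.04.

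**Figure D3:**
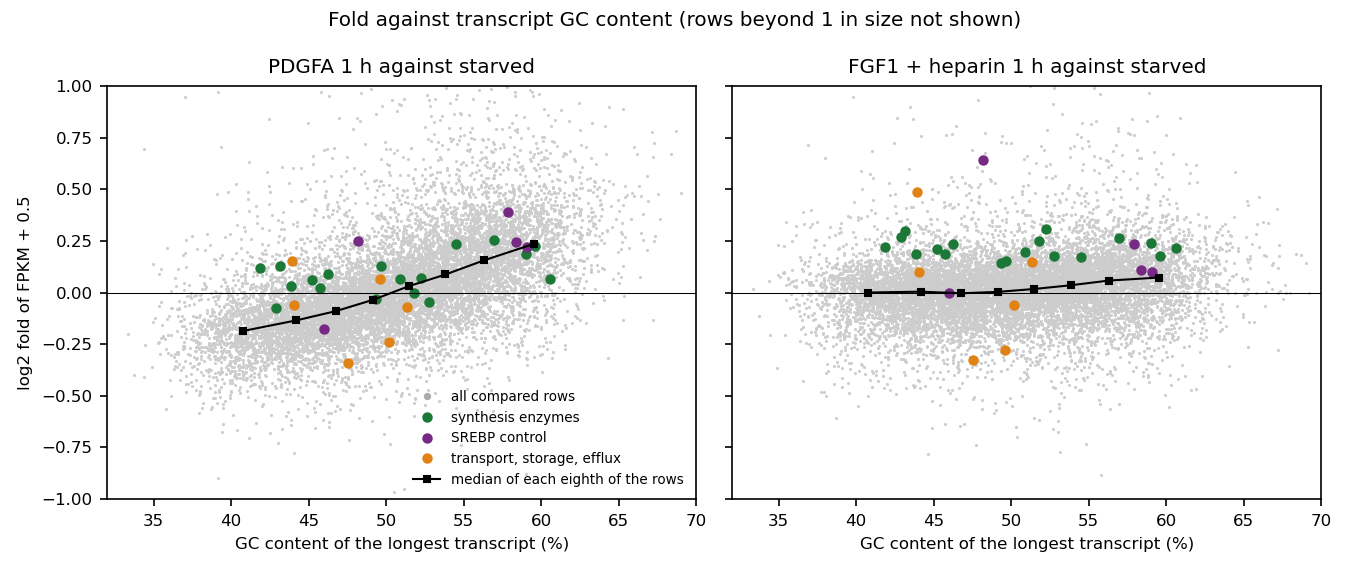
Log2 fold over starved cells against the GC content of the transcript, for all compared rows in grey, the cholesterol genes in colour by role, and the median of each eighth of the rows in black. With PDGFA the black line climbs from −0.19 to 0.24 and the enzymes (green) straddle it, while with FGF1 it runs from 0.00 to 0.07 and the 18 enzymes lie above it.

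Set directly against each other, FGF1 with heparin had the higher value than PDGFA in 16 of 18 enzymes, with a median log2 fold of 0.15. The exceptions were Mvk and Fdps. None of the 29 genes was called, against 0.12% of compared rows, and a higher FGF1 value was found in 53.1% of compared rows and 54.7% of those in the enzymes' level range. All 10 late enzymes were higher with FGF1, with a median of 0.16, and 6 of 8 early enzymes, with a median of 0.04. The largest enzyme difference was that of Sc5d, with a log2 fold of 0.34 (−0.50 to 1.18). With the trend removed the counts were 9 of 10 late and 4 of 8 early enzymes, against 50.4% of all rows with a trend, and the median over all 18 was 0.08.

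**Figure D4:**
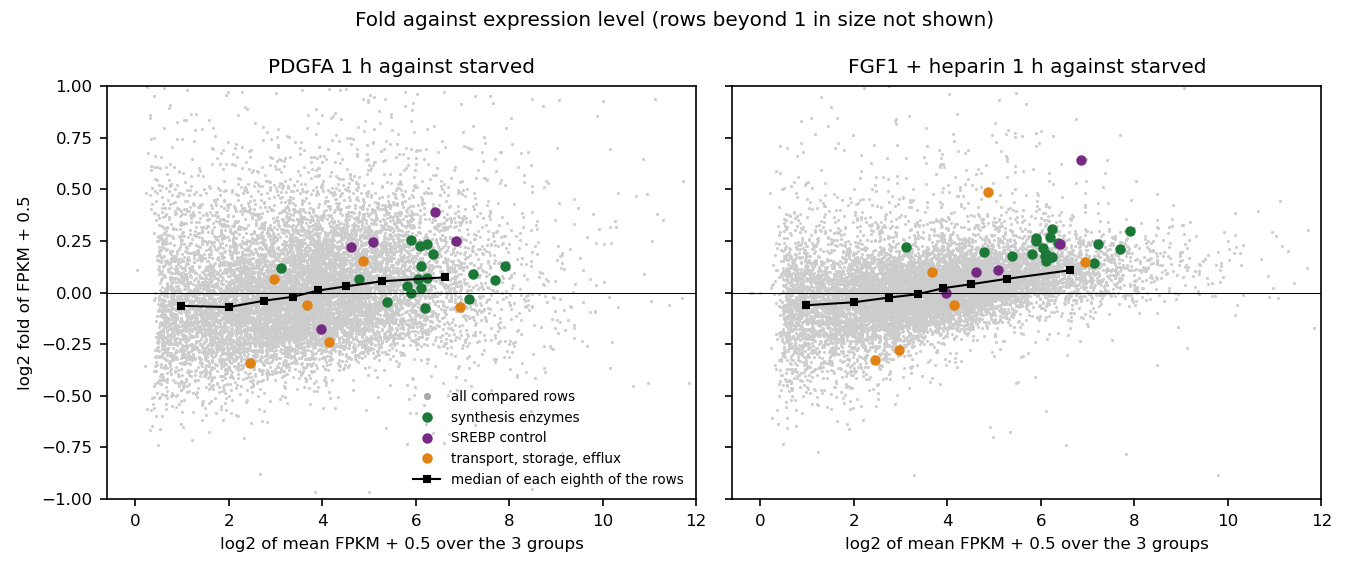
Log2 fold over starved cells against log2 of the mean FPKM + 0.5 of the 3 groups, for all compared rows in grey, the cholesterol genes in colour by role, and the median of each eighth of the rows in black. With FGF1 the black line climbs to 0.11 at the highest levels and the 18 enzymes lie above it, and Insig1 and Stard4 stand at 0.64 and 0.48.

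In the control circuit, Insig1 had the largest fold of the set with FGF1, and its paralog Insig2 nearly none. Insig1, which retains SCAP in the endoplasmic reticulum, lies at chr5:28071412-28078662 in build mm10. It had 92.6 FPKM [69.6 to 114] in starved, 110.4 [57.3 to 163] in PDGFA and 145 [95.9 to 194] in FGF1 cells. The FGF1 value was 1.57-fold the starved one and the highest of the 3, but the FGF1 and starved intervals overlapped between 95.9 and 114 FPKM. Its log2 fold was 0.64 (0.05 to 1.24), and 1.08% of compared rows had a larger one. By a looser rule, a z value made from the intervals and past its 95% limit, Insig1 was the only gene of the set to be called with FGF1 (z of 2.11), where 1.36% of compared rows were. That rule called 0 genes of the set with PDGFA, against 1.94% of compared rows, and 0 between the ligands, against 1.27%. When each value had to lie outside the other group's interval, Insig1 was again the only one with FGF1, against 1.76% of compared rows. There too the count was 0 with PDGFA, against 0.983% of rows, and 0 between the ligands, against 0.53%. Gm35223, a predicted gene, overlaps Insig1. Removing the trend left the log2 fold of Insig1 with FGF1 at 0.54 and with PDGFA at 0.25.

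Insig2, the paralog that is not known as an SREBP target, lies at chr1:121304353-121332589. It had 15.8 FPKM [12.2 to 19.5] in starved, 14.0 [7.05 to 20.9] in PDGFA and 15.8 [10.5 to 21.1] in FGF1 cells. The PDGFA value of Insig2 was the lowest of the 3, with a log2 fold over starved cells of −0.18, or −0.08 with the trend removed. Its starved and FGF1 values were nearly equal, with a log2 fold of −0.0045 (−0.57 to 0.56). In starved cells the Insig1 level was above that of Insig2 with intervals wholly apart, and this held in both treated groups. The difference between the 2 paralogs in their response was not tested.

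The SREBP genes themselves had their highest values with PDGFA. Srebf2, which encodes the isoform that mainly drives cholesterol genes, had 72.3 FPKM [56.5 to 88.2] in starved, 95.02 [45.7 to 144] in PDGFA and 85.1 [56.6 to 114] in FGF1 cells. Srebf1, the isoform tied more to fatty acid synthesis, had 30.6 [22.1 to 39.2], 36.3 [14.2 to 58.4] and 33.1 [19.8 to 46.4]. Scap had 22.3 [17.6 to 27.0], 26.0 [13.2 to 38.8] and 23.9 [16.2 to 31.7]. The PDGFA value of Srebf2 lay above the starved interval, at 1.31-fold, with a log2 fold of 0.39 (−0.42 to 1.20). All 3 followed the order starved, FGF1, PDGFA, and all had GC-rich transcripts, at 57.9%, 58.4% and 59.1% GC in the order named. With the trend removed, the log2 folds with PDGFA were 0.14 for Srebf2, 0.01 for Srebf1 and −0.02 for Scap, in place of 0.39, 0.24 and 0.22. Over the 5 control genes the median log2 fold was 0.24 with PDGFA, or 0.01 with the trend removed, and 0.11 with FGF1. Between the ligands it was −0.12, which turned to 0.05 with the trend removed.

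Genes that handle cholesterol once it is made or taken up did not share a direction. Stard4, a carrier of free cholesterol between membranes, had 24.7 FPKM [18.8 to 30.5] in starved, 27.5 [14.5 to 40.5] in PDGFA and 34.7 [23.7 to 45.7] in FGF1 cells. Its FGF1 value lay above the starved interval, at 1.41-fold, and the log2 fold was 0.48 (−0.08 to 1.05), exceeded by 1.69% of compared rows. Abca1, the pump that hands cholesterol to lipoprotein particles, lay below the starved value with both ligands, with 5.82 [4.59 to 7.05], 4.49 [2.43 to 6.54] and 4.55 [3.08 to 6.01]. The treated values of Abca1 were lower than the starved interval and nearly the same as each other, and the log2 folds were −0.34 (−0.9995 to 0.32) with PDGFA and −0.32 (−0.83 to 0.18) with FGF1. Both comparisons use the same starved libraries. Mylip, an E3 ligase that degrades lipoprotein receptors and a target of the sterol sensor LXR, had 7.63 [5.67 to 9.58], 8.002 [4.05 to 11.9] and 6.21 [4.06 to 8.35]. Only FGF1 had a Mylip value below the starved one, with a log2 fold of −0.28 (−0.85 to 0.30), and Mylip had the lowest log2 fold of FGF1 against PDGFA in the set, −0.34.

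The lysosomal exporters Npc1 and Npc2 differed in level. Npc2, the soluble partner, had 121 FPKM [91.7 to 149] in starved, 115 [61.4 to 168] in PDGFA and 134 [90.8 to 176] in FGF1 cells, and Npc1, the membrane partner, 18.5 [14.0 to 23.0], 15.6 [7.02 to 24.2] and 17.8 [11.5 to 24.0]. The starved intervals of these partners lay apart. Soat1, which esterifies cholesterol for storage, had 12.1 [9.45 to 14.7], 11.6 [6.39 to 16.8] and 13.0 [8.97 to 17.0]. Over the 6 compared genes of this role 3 were higher with FGF1 and 2 with PDGFA than in starved cells, with median log2 folds of 0.02 and −0.06. Between the ligands 5 of 6 were higher with FGF1, with a median of 0.17.

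Over all 29 compared genes the median log2 fold was 0.19 with FGF1 (25 higher), 0.07 with PDGFA (20 higher) and 0.15 between the ligands (23 higher with FGF1). Of all compared rows, 56%, 49.3% and 53.1% were higher in the same order of comparisons. Among the 30 genes, the order starved, PDGFA, FGF1 from low to high was the most frequent, with 14 genes, 12 of them enzymes. The order PDGFA, starved, FGF1 was seen in 6 genes and starved, FGF1, PDGFA in 5. How often each order occurs over all compared rows was not counted, so these counts only describe the set. The deposited intervals were wide beside these differences. Their median half-width over the 30 genes was 24.5% of the FPKM in starved, 48.4% in PDGFA and 33.6% in FGF1 cells, against 25.6%, 49.6% and 34.7% over all compared rows.

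In neighbouring branches of lipid metabolism the medians with FGF1 lay below that of the enzymes, a difference that was not tested. In 5 lists of 58 other pathway genes, listed by role and not by how they moved, 55 genes were compared and none was called in any comparison. Over all compared rows the shares called were 0.308% with PDGFA, 0.555% with FGF1 and 0.12% between the ligands. Beside the counts of higher genes below, 56% of compared rows stood above starved cells with FGF1 and 49.3% with PDGFA. Of 12 SREBP-1 type targets of fatty acid synthesis, 11 stood above starved cells after FGF1. Their median log2 fold was 0.11, or 0.04 with the trend removed. Of these, Fasn, the fatty acid synthase, had the largest log2 fold, with 57.4 FPKM [43.3 to 71.5] in starved, 72.8 [34.9 to 111] in PDGFA and 69.9 [45.0 to 94.8] in FGF1 cells. Acss2, an acetyl-CoA synthetase, was next with FGF1, at 19.8, 20.5 and 23.7 FPKM. With PDGFA 7 of the 12 were higher and the median was 0.0039. After Fasn, the highest PDGFA fold was that of Fads2, a desaturase, with 119 FPKM in starved, 130.1 in PDGFA and 128 in FGF1 cells.

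Among 10 genes of SREBP proteolysis and INSIG turnover, 9 stood above starved cells after FGF1 (median log2 fold 0.07) and 4 after PDGFA (median −0.08). The shares over all compared rows were 56% and 49.3%, and in the enzymes' level range 65% and 53.2%. Mbtps2, the second SREBP protease, had 9.78 FPKM in starved, 8.09 in PDGFA and 10.3 in FGF1 cells. Of 13 genes of the isoprenoid branch 10 were higher with FGF1 and 6 with PDGFA, with medians of 0.04 and −0.05. Ggps1, which makes the geranylgeranyl donor, had 13.2, 10.2 and 12.8 FPKM. Of 14 compared genes of lysosomal and membrane sterol traffic, 10 were higher with FGF1 (median 0.07) and 6 with PDGFA (median −0.0039). Cav1, the caveolin, had 493, 556 and 579.7 FPKM, and Lamp2, a lysosomal membrane protein, 216, 173 and 226.

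**Figure D5:**
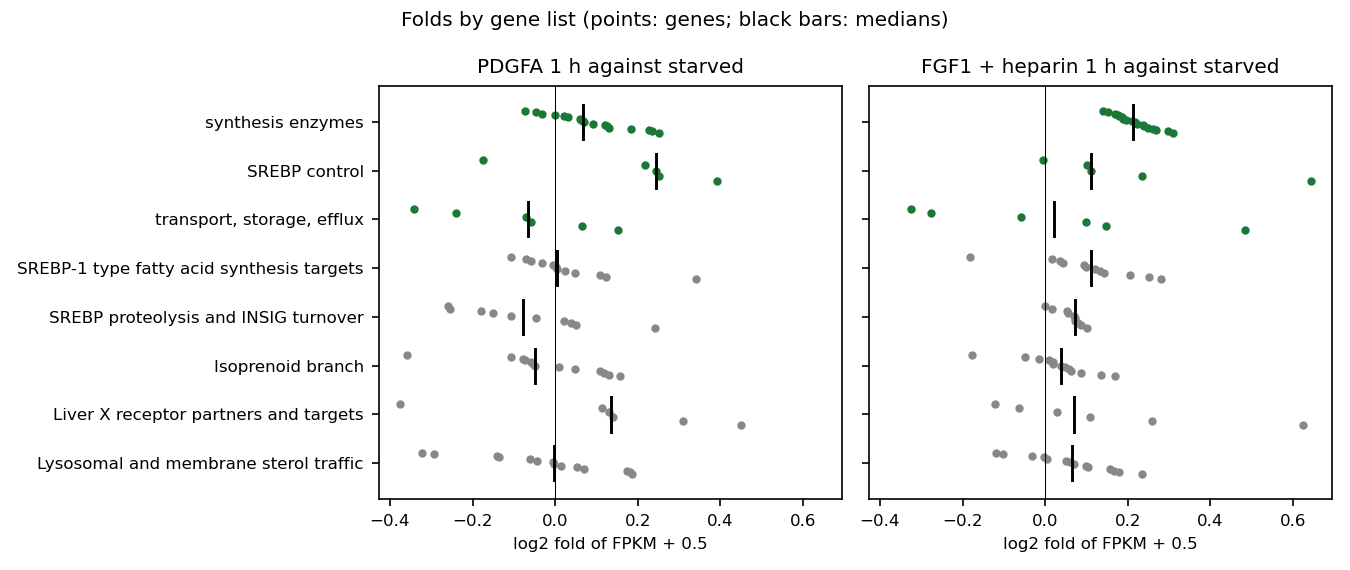
Log2 fold over starved cells for the 3 roles of the set (green) and 5 lists of neighbouring pathway genes (grey), with 1 point per compared gene and black bars at the medians. With FGF1 the 18 enzymes lie in a narrow band with a median of 0.21, and the medians of the 5 other lists lie between 0.04 and 0.11.

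Of 6 compared LXR partners and targets, 4 were higher with FGF1 and 5 with PDGFA, with medians of 0.07 and 0.14. With the trend removed these medians were 0.018 and −0.00028, and 3 of the 6 lay above 0 with PDGFA. Arl4c, a small GTPase and LXR target, had 11.03 FPKM [8.49 to 13.52] in starved, 13.8 [7.58 to 19.96] in PDGFA and 17.3 [11.97 to 22.5] in FGF1 cells, the largest FGF1 fold in the 5 lists. Its FGF1 value lay above the starved interval and its starved value below the FGF1 interval. Insig1 met that same looser rule with FGF1, as did 1.76% of compared rows. Nr1h2, which encodes the widely expressed LXR, had 24.1 [17.6 to 30.6], 33.1 [17.4 to 48.8] and 28.9 [18.9 to 38.2]. Smpdl3a, a phosphodiesterase gene and LXR target, had the lowest PDGFA fold of the 5 lists, with 21.6, 16.6 and 22.1 FPKM. Smpdl3a and Lamp2 also had the highest log2 folds of FGF1 against PDGFA in these lists, 0.40 and 0.39. The other LXR gene, Nr1h3, was below 1 FPKM in all 3 groups. Arl4c and Abca1, both known as LXR targets, thus lay on opposite sides of the starved value, with overlapping intervals in each case.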

How the data were processed

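The deposited table holds FPKM made by the authors, 1 value per group with a lower and upper bound, per the file headers. The tools named in the submitters' processing notes are Cuffdiff, TopHat and CASAVA, with build mm10. For versions, settings, the confidence level of the bounds and multiply matching reads, the sources used here give nothing. The limma fit planned over libraries was not run, since the table gives group values only.

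RefSeq accessions were matched to gene names of assembly GRCm38.p6 for 22992 of 23286 rows, and 243 rows carried 2 or more names. Rows needed 1 FPKM in a group and no failed estimate (2 rows), which left 11702. Calls required deposited intervals wholly apart, with each FPKM in its own interval. The call rule was tried on simulated data for PDGFA against starved cells only, where it left most 1.5-fold and 2-fold rises uncalled. GC content, length and shared 31-base words came from GENCODE M21 transcripts, and the trend was a robust cubic regression over 11466 rows of at least 200 nt. Positions are 1-based. Genes, lists and rules were chosen with earlier results of these data known. All members are named, and from the other lists genes with the largest folds. Software was statsmodels 0.14.6 (regression), scipy 1.17.1, matplotlib 3.10.9 (plots), pandas 2.3.3 and numpy 2.4.6 under Python 3.11.15. Alternatives covered pseudocount, minimum level, scaling, trend, shared rows and the call rule.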

Additional observations from a re-analysis of the deposited data

How the results depend on the processing

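No paired analysis was possible because the table gives 1 value per group, which also prevented leaving out single libraries. The counts of called genes stayed at 0 in all alternatives for PDGFA against starved cells and for FGF1 against PDGFA. For FGF1 against starved cells the count was 1 (Insig1) when each value had to lie outside the other interval. It was also 1 with z values, and 0 otherwise. Of all compared rows as deposited, 0.308% were called with PDGFA, 0.555% with FGF1 and 0.12% between the ligands. With each value outside the other interval the shares were 0.983%, 1.76% and 0.53%, and with z values 1.94%, 1.36% and 1.27%. At such low shares, a count of 0 or 1 among 29 genes says little about the set. The median log2 fold of the enzymes ranged from 0.11 (quantile normalization) to 0.22 with FGF1 and from 0.08 to 0.16 between ligands. Quantile normalization gave −0.043 for the enzymes, 0.13 for SREBP control and −0.17 for the transport genes with PDGFA, and −0.0453 for the transport genes with FGF1. With the trend removed the SREBP control median was 0.0074 with PDGFA and 0.050 between ligands, and the transport median with FGF1 was −0.0087. Without a minimum FPKM the transport median with FGF1 was −0.058, with Abcg1 entering the group. In counts of genes, quantile normalization left 6 of 18 enzymes higher with PDGFA, and removing the trend put 4 of 5 control genes higher with FGF1 than with PDGFA. Of 771 log2 folds of single genes under the alternatives 25 changed sign, 14 with the trend removed, 8 with quantile normalization and 3 elsewhere. All 771 moved by less than the half-width of the range of their log2 fold. Those ranges are wide, so this does not show that the folds were stable. Leaving out the row shared with Vps51 was added after the data were seen. The causes of the other differences were not tested.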
